A study of Mus musculus with 16 samples.

Results

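The regions described here are the PPARγ and C/EBPα binding sites around 4 mouse genes of fatty acid uptake and binding, Fabp4, Fabp5, Cd36 and Lpl, in 3T3-L1 adipocytes. Members are the listed peaks whose centre lies in 1 of 3 windows of the mm9 genome. Fabp4 and Fabp5 share a window at chr3:9980000-10260000, Cd36 lies in chr5:17250000-17460000 and Lpl in chr8:71360000-71480000. The windows held 38 of the 30588 PPARγ peaks and 37 of the 30519 C/EBPα peaks, 75 of 61107 in all. Among listed peaks, membership rests on position only. Being listed depends on measured PPARγ or C/EBPα signal, so a peak weak in DMSO may be listed through its signal with the ligand. A peak weak with the ligand may likewise be listed through its signal in DMSO.

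3T3-L1 cells are mouse fibroblasts, an established line, that turn into fat cells after induction with dexamethasone, isobutylmethylxanthine and insulin, which every culture received. At day 7 the cells were given 1 µM rosiglitazone in 0.1% DMSO, or 0.1% DMSO alone, for 1 h, and chromatin was precipitated with antibodies to PPARγ, C/EBPα, MED1 or CBP and sequenced (ChIP-seq). The labels name 2 PPARγ samples per treatment and 1 per treatment for the other 3 antibodies, but the tables carry 1 column per antibody and treatment. No difference between treatments therefore has a replicate check, no p-value is given, and what differs between 2 libraries and what differs between 2 treatments cannot be told apart. The cells are a cultured line, so the windows are described for these cells and not for fat tissue, and no expression values were used to check their state. In bulk chromatin, fewer cells with a bound site and less binding per cell cannot be told apart.

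Fat cells take up fatty acids through a short chain of proteins. LPL, lipoprotein lipase, is secreted and releases fatty acids from circulating triglyceride at the vessel wall. CD36 is a membrane protein that takes long-chain fatty acids into the cell, and FABP4 and FABP5 are small cytosolic proteins that bind and carry them. PPARγ, the nuclear receptor that rosiglitazone activates, binds DNA with its partner RXR and is known to drive these genes in fat cells, often beside C/EBPα. MED1 is a subunit of Mediator through which nuclear receptors contact it, and CBP acetylates histones.

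Values are given in deposited units, which are tags (mapped reads) scaled by the authors. Each value stands for a whole number of tags, which is printed beside it where it matters. If the scale is 10 M (mega) tags, which no header states, the libraries held between 1.31 and 12.0 M tags, and MED1 and CBP with rosiglitazone were the shallowest. Ratios are rosiglitazone over DMSO at the authors' scaling, and the range in brackets is the exact 95% interval (Clopper-Pearson), which covers counting error only and takes PCR copies as separate tags. Over the whole lists the summed ratios were 1.53 for PPARγ, 1.63 for MED1 and 1.38 for CBP at PPARγ peaks, and 1.01 for C/EBPα at C/EBPα peaks. Each window is set against these with a ratio of ratios to all other peaks of the list, in which library depth and scaling cancel.

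All 3 windows were dense in peaks. They held 6.07 PPARγ peaks per 100 kb around Fabp4 and Fabp5, 4.29 around Cd36 and 10.0 around Lpl, where the list averaged 1.19 between the first and last peak of each chromosome. C/EBPα peaks numbered 4.64, 5.71 and 10.0 per 100 kb against 1.19. Member peaks of PPARγ were also high within the list. By the authors' peak score, 13 of the 38 (34.2%) ranked in the top decile, which held 10.1% of the list. Among the C/EBPα members this was 3 of 37 (8.11%). PPARγ and C/EBPα peaks had at least 1 bp in common at 18 members of each list, 47.4% of the PPARγ members (31.0 to 64.2) and 48.6% of the C/EBPα members (31.9 to 65.6), where the background was 36.1% of the PPARγ list and 36.2% of the C/EBPα list. The intervals of both member shares hold the background share. Around Lpl 8 of 12 PPARγ peaks were shared, around Fabp4 and Fabp5 7 of 17 and around Cd36 3 of 9.

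In the RefSeq gene order of GRCm38, the protein-coding genes from Fabp5 to Fabp12 run Fabp5, Pmp2, Fabp9, Fabp4 and Fabp12, with Pag1 before and Impa1 after. Pmp2, Fabp9 and Fabp12 belong to the same family of fatty acid binding proteins. Cd36 stands between Sema3c and Gnat3, and Lpl between Ints10 and Slc18a1. That annotation is of another build than the peaks, so distances to gene starts were not measured here. Peaks of the shared window are not assigned to Fabp4 or to Fabp5.

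PPARγ occupancy differed between the 3 windows. Around Fabp4 and Fabp5 the 17 PPARγ peaks summed to 323 units in DMSO and 535 with the ligand, for a ratio of 1.66 (1.45 to 1.89). Around Cd36 the 9 peaks summed to 331 and 280 units, a ratio of 0.847 (0.729 to 0.984). Around Lpl the 12 peaks summed to 305 and 328 units, a ratio of 1.08 (0.929 to 1.25). The summed totals were thus close to each other in DMSO and further apart with the ligand. They are sums over unlike numbers of peaks in windows of unlike length, so they do not show an equal level per site. Against all other PPARγ peaks, the ratio was 1.09 times as high around Fabp4 and Fabp5 (0.954 to 1.24), 0.555 times around Cd36 (0.478 to 0.645) and 0.705 times around Lpl (0.609 to 0.817). At these peaks Fabp4 and Fabp5 did not differ from the list beyond counting error, while Cd36 and Lpl lay under it. Counted at the C/EBPα peaks of the windows, the PPARγ ratio was 2.37 around Fabp4 and Fabp5, 1.49 times that of all other C/EBPα peaks (1.23 to 1.83), while Cd36 at 0.478 times (0.402 to 0.567) and Lpl at 0.751 times (0.630 to 0.894) lay under the list there too. The direction of the Lpl window depends on the scale, since its summed PPARγ was 1.08 as deposited and 0.705 relative to the list. The Cd36 ratio rests on 1 peak for its place under 1, since without chr5:17382576-17382762 it was 0.977 (0.823 to 1.16), still under the list's 1.53.

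**Figure D1:**
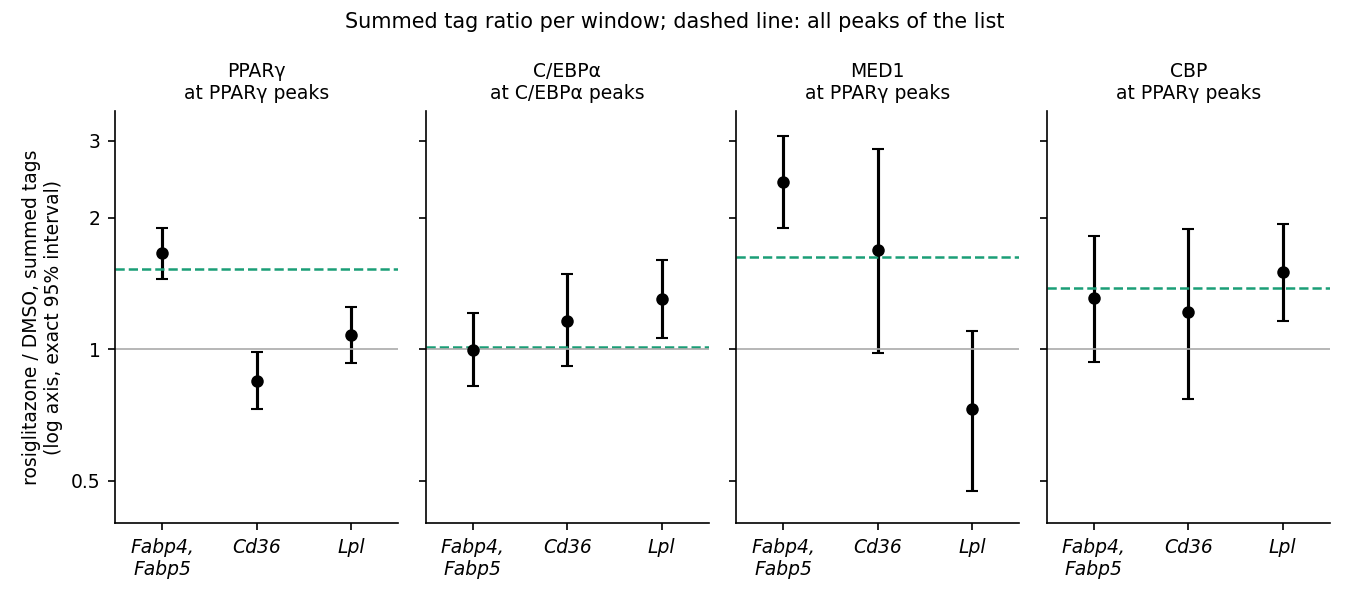
Rosiglitazone over DMSO ratio of summed tags (log axis) in the 3 windows for PPARγ, MED1 and CBP at PPARγ peaks and C/EBPα at C/EBPα peaks, with exact 95% intervals as bars and the ratio over all peaks of the list as a dashed line. PPARγ around Cd36 (0.847) and Lpl (1.08) lies under the dashed line at 1.53, and MED1 is 2.41 around Fabp4 and Fabp5 and 0.730 around Lpl.

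Directly compared, the PPARγ ratio around Fabp4 and Fabp5 was 1.95 times that around Cd36 (1.60 to 2.39) and 1.54 times that around Lpl (1.26 to 1.88). Cd36 and Lpl differed less, by a factor of 0.787 (0.637 to 0.973). These are 3 of 12 comparisons between windows over 4 antibodies, of which 5 had an interval that excluded 1.

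Some single peaks were higher or lower with rosiglitazone beyond counting error. The interval of the PPARγ ratio lay above 1 at 7 of the 38 member peaks (18.4%), where the background was 28.1% of the list, and below 1 at 3 (7.89%), where the background was 3.83%. Whether these shares differ from the background was not tested. At least 2-fold higher on the log2(value + 1) scale were 7 members, where the background was 30.0%, and at least 2-fold lower were 2, where the background was 4.43%. The members' median log2 ratio was 0.38, and the list's was 0.50. Of the 7 peaks with an interval above 1, 4 lay around Fabp4 and Fabp5, 1 around Cd36 and 2 around Lpl. C/EBPα peaks overlapped 6 of these 7 (85.7%), 10 of the 28 whose interval held 1 (35.7%) and 2 of the 3 whose interval lay below 1 (66.7%). Over the whole list the shares were 45.6%, 32.2% and 34.9% in the same order.

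**Figure D2:**
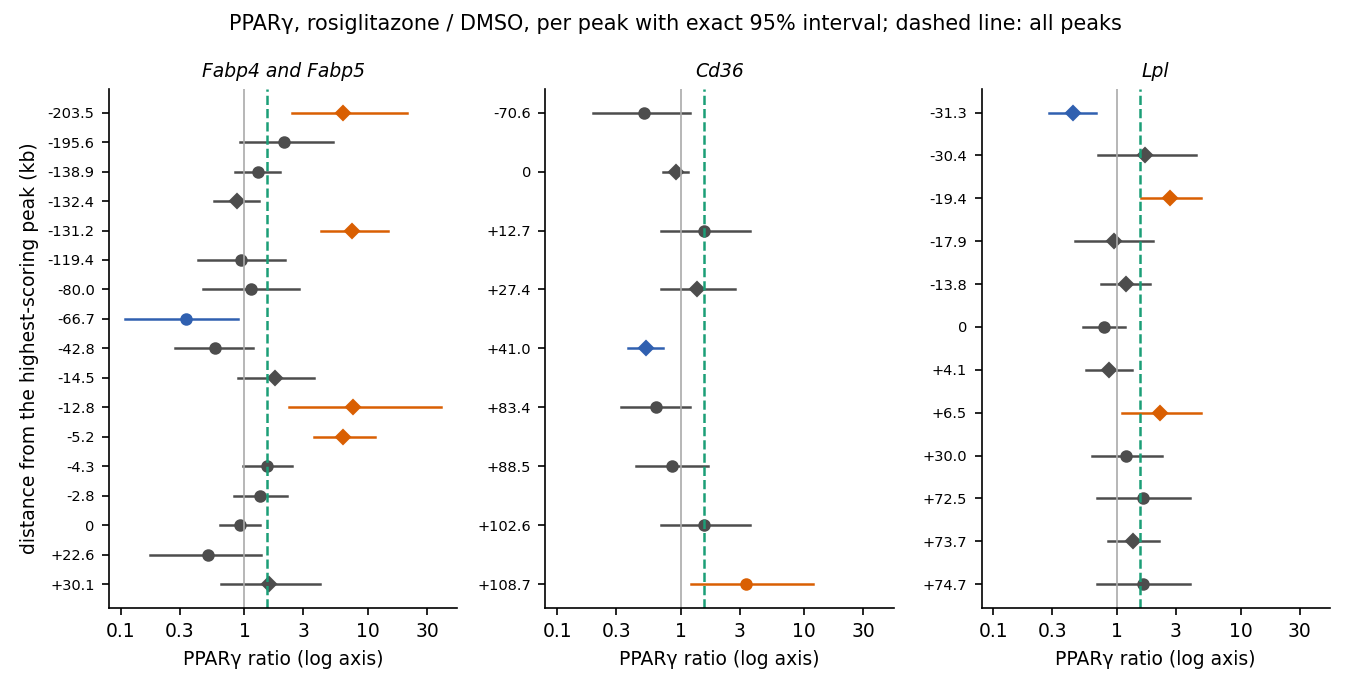
PPARγ ratio (log axis) at each of the 38 PPARγ peaks with its exact 95% interval, in order along the chromosome and labelled by distance in kb from the highest-scoring PPARγ peak of the window. Diamonds overlap a C/EBPα peak and circles do not, orange intervals lie above 1 and blue ones below, and the dashed line is the ratio of 1.53 over all peaks. Of the 7 orange peaks, 4 are in the window of Fabp4 and Fabp5.

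Around Fabp4 and Fabp5, summed PPARγ was higher with rosiglitazone at the peaks that overlap C/EBPα peaks. Taken singly, 4 of these 7 had an interval above 1. The 7 shared peaks held 110 PPARγ tags in DMSO and 352 with the ligand, for a ratio of 3.03 (2.44 to 3.78), and the 10 unshared peaks held 257 and 291, a ratio of 1.07 (0.902 to 1.27). The first ratio rests mostly on chr3:10085451-10085637 and chr3:10211394-10211580. Without them the other 5 shared peaks held 81 and 144 tags, a ratio of 1.68 (1.27 to 2.23), which meets the interval of the unshared peaks at 1.27. These 5 include chr3:10013084-10013270 (5 and 33 tags) and chr3:10203841-10204027 (3 and 24 tags). Their DMSO values, 4.40 and 2.64 units, lie under the lowest PPARγ score of the list, 5.60. Both may have been listed through their rosiglitazone tags, so the ratios at shared peaks may follow in part from the listing. Over the whole list the 2 classes lay closer together, at 1.63 with C/EBPα and 1.44 without. In the other windows the intervals of the classes overlapped, and the difference between windows in this respect was not tested. Around Cd36 the ratio was 0.789 at shared peaks (0.661 to 0.941) and 1.03 at unshared ones (0.766 to 1.38), and around Lpl 1.09 (0.920 to 1.30) and 1.03 (0.778 to 1.37).

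The clearest of these sites was chr3:10085451-10085637, the third by score among PPARγ peaks of the window. PPARγ there went from 11.4 units in DMSO to 84.8 in rosiglitazone (13 and 102 tags), a ratio of 7.42 (4.15 to 14.4). Leaving it out lowered the summed ratio of the window to 1.44 (1.26 to 1.66). It sits 36 bp from the centre of chr3:10085465-10085695, the highest C/EBPα peak of all 3 windows, whose score ranked 348th in the list. C/EBPα at that peak was 150 units in DMSO and 146 with the ligand, for a ratio of 0.976 (0.717 to 1.34), so the interval held 1 for C/EBPα where it did not for PPARγ. MED1 in the PPARγ window was 45.4 and 168 units (13 and 22 tags), a ratio of 3.71 (1.79 to 8.01), and CBP was 13.3 and 18.2 units (6 and 3 tags), too few to compare.

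A PPARγ peak 1241 bp away differed from it. At chr3:10084210-10084396 PPARγ was 44.0 units in DMSO and 38.2 with the ligand, for a ratio of 0.870 (0.570 to 1.32). Its neighbour's ratio was 8.43 times as high (4.05 to 18.7), the largest difference among the 8 pairs of member PPARγ peaks within 2 kb of each other. This peak had the highest CBP ratio of all members with at least 20 CBP tags, from 15.5 units to 84.9 (7 and 14 tags), a ratio of 5.49 (2.07 to 16.1). It was shared too, with chr3:10084129-10084359, where C/EBPα was 15.5 and 31.8 units, a ratio of 2.06 (0.866 to 5.64). The third peak of this group, chr3:10077713-10077899, is not shared and held 37.8 and 48.2 units of PPARγ, a ratio of 1.28 (0.845 to 1.94). It held no MED1 tag in either library, and CBP there went from 28.7 units (13 tags) to 0 tags. With 3 tags put in place of 0 this was 1.58-fold lower, and the exact upper bound of the ratio was 0.900.

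The group with the most peaks in the window spanned 14.7 kb from chr3:10202075 to 10216795, with 6 PPARγ and 5 C/EBPα peaks at gaps of at most 10 kb. Over its PPARγ peaks the ratio was 1.86 for PPARγ (1.53 to 2.27) and 2.73 for MED1 (2.03 to 3.68). Its highest PPARγ peak by score was chr3:10216609-10216795, where PPARγ was 54.5 units in DMSO and 49.9 with the ligand, for a ratio of 0.915 (0.631 to 1.33). This peak had no C/EBPα partner and almost no C/EBPα tags, 0 and 1. Toward the start of the window, chr3:10211394-10211580 held 14.1 units in DMSO and 88.1 with the ligand (16 and 106 tags), for a ratio of 6.26 (3.68 to 11.4). With rosiglitazone this became the highest value among the PPARγ peaks of the window, and in DMSO it had been under its 3 unshared neighbours in the group.

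With rosiglitazone, MED1 among PPARγ members was highest at the same peak. It went from 122 units to 505 (35 and 66 tags) at chr3:10211394-10211580, a ratio of 4.13 (2.70 to 6.41), the highest MED1 ratio of any member with at least 20 MED1 tags. Among the 30588 PPARγ peaks its MED1 value ranked 308th in DMSO and 48th in rosiglitazone. C/EBPα there was 11.0 and 11.5 units, a ratio of 1.04 (0.312 to 3.94). The overlapping C/EBPα peak, chr3:10211252-10211482 with its centre 120 bp away, held 35.0 and 91.8 units of MED1 (10 and 12 tags), so fewer MED1 tags lay in the C/EBPα window of the site. The next peaks on differed less in PPARγ. At chr3:10212270-10212456, 876 bp away, PPARγ was 29.9 and 45.7 units, a ratio of 1.53 (0.980 to 2.42), and at chr3:10213793-10213979 it was 27.3 and 36.6 units, a ratio of 1.34 (0.828 to 2.20). The latter held the most MED1 of the PPARγ members in DMSO, 143 units, and 184 in rosiglitazone, a ratio of 1.28 (0.741 to 2.17).

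A MED1-rich site without a PPARγ peak lay in the same group. The C/EBPα peak chr3:10208330-10208560 is modest by its own factor, with 24.3 units of C/EBPα in DMSO and 17.8 with the ligand, for a ratio of 0.734 (0.310 to 1.79). Its MED1 was 164 units in DMSO and 505 with the ligand (47 and 66 tags), for a ratio of 3.07 (2.08 to 4.57), ranking 165th and 51st among the 30519 C/EBPα peaks. PPARγ tags were present there but few, 7.91 and 20.8 units, a ratio of 2.63 (1.19 to 6.39). CBP was 8.84 and 12.1 units (4 and 2 tags). By its own score this peak ranked 11125th, so its MED1 rank was far above its C/EBPα rank.

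At 1 further site of this group PPARγ, C/EBPα and MED1 were all higher with the ligand. At chr3:10203841-10204027 PPARγ went from 2.64 units to 19.9 (3 and 24 tags), a ratio of 7.56 (2.30 to 39.2), the highest PPARγ ratio of the members. In the overlapping C/EBPα peak, chr3:10203886-10204116, C/EBPα went from 4.42 units to 33.1 (2 and 26 tags), a ratio of 7.50 (1.88 to 65.2). MED1 in the PPARγ window went from 0 tags to 5. With 3 tags put in place of 0 this was 3.65-fold higher, and the exact lower bound of the ratio was 2.01. The site is weak in DMSO for every antibody, so these ratios are wide. Its PPARγ and C/EBPα values in DMSO lie under the lowest score of their lists, 5.60 and 8.10. The peaks scored 11.5 (PPARγ) and 22.6 (C/EBPα), between their DMSO and rosiglitazone values. Ranks by score may thus draw on both treatments. If score and signal share a scale, which is not stated, both peaks were listed through their rosiglitazone tags. High PPARγ and C/EBPα ratios then follow in part from the listing.

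The outermost part of the window, nearest its start, held chr3:10013084-10013270, where PPARγ went from 4.40 units to 27.4 (5 and 33 tags), a ratio of 6.24 (2.42 to 20.5). It overlaps a weak C/EBPα peak, and CBP there went from 9 tags to 0, which did not differ beyond counting error (upper bound of the ratio 1.39). Its PPARγ value in DMSO also lies under the lowest PPARγ score, 5.60, so the same limit of listing applies. In contrast, chr3:10149867-10150053 had the lowest PPARγ ratio of the window, from 14.9 units to 4.99 (17 and 6 tags), 0.334 (0.108 to 0.887). It is an unshared peak in the lower part of the list by score. Its rosiglitazone value lies under the lowest PPARγ score, 5.60, so it may have been listed through its DMSO tags. Its low ratio may then follow in part from the listing. The other 7 PPARγ peaks of the window had ratios between 0.509 and 2.10, and every interval held 1.

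**Figure D3:**
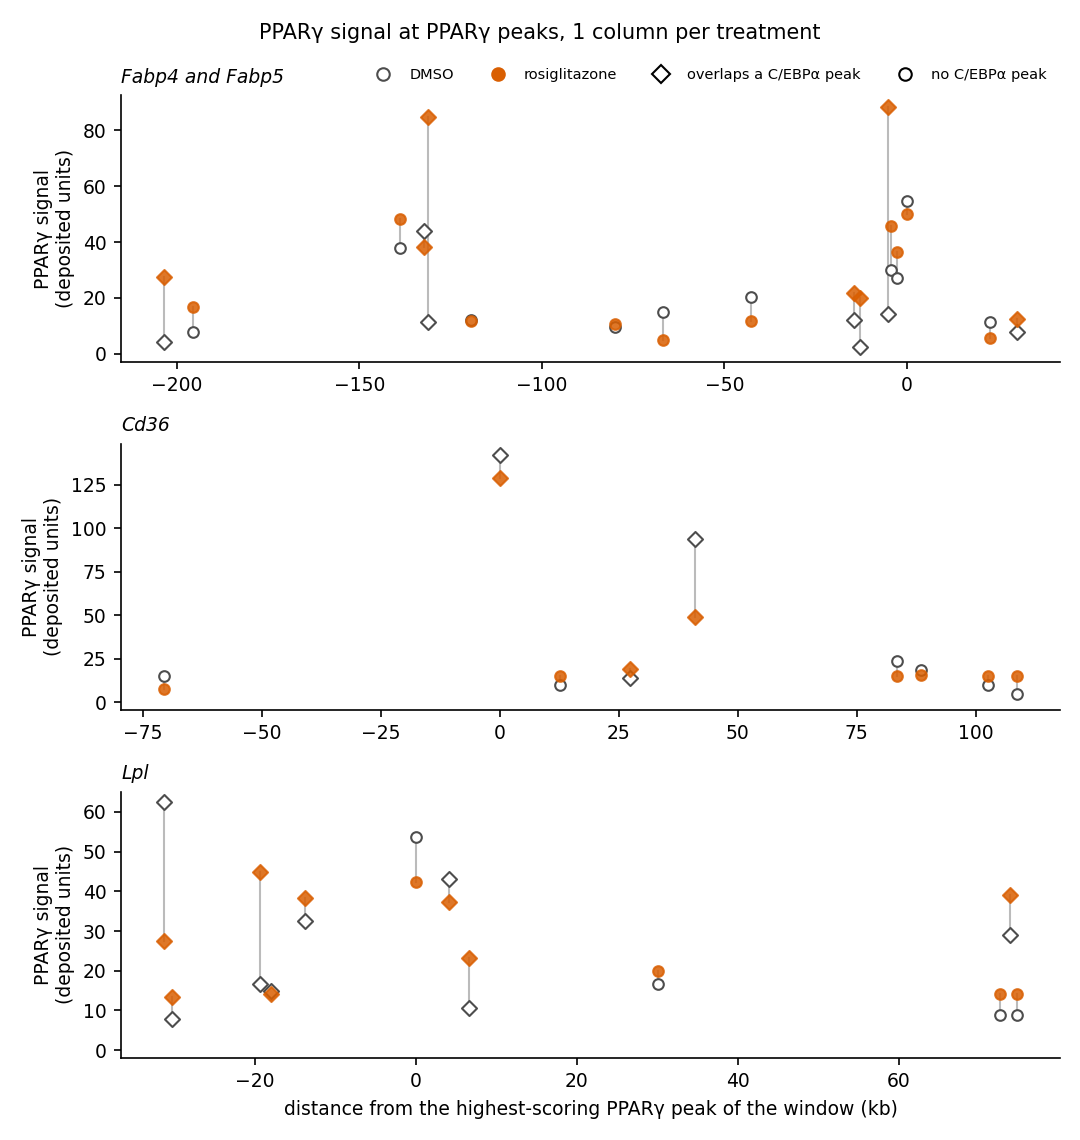
PPARγ signal in deposited units at each PPARγ peak in DMSO (open) and rosiglitazone (filled), against the distance in kb from the highest-scoring PPARγ peak of the window, with diamonds for peaks that overlap a C/EBPα peak and circles for the others. Around Fabp4 and Fabp5, 2 diamonds reach 84.8 and 88.1 units with rosiglitazone from 11.4 and 14.1, while around Cd36 the 2 highest peaks are under their DMSO values.

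Around Cd36, PPARγ was already high without the ligand. The peak chr5:17341606-17341792 had a score of 134.6, 147th of the list, and held 142 units of PPARγ in DMSO and 129 with the ligand (161 and 155 tags), for a ratio of 0.910 (0.725 to 1.14). By its DMSO value it ranked 58th of 30588, and by its rosiglitazone value 315th. The overlapping C/EBPα peak, chr5:17341449-17341679 with its centre 135 bp away, went from 4.42 units of C/EBPα to 28.0 (2 and 22 tags), a ratio of 6.35 (1.56 to 55.7). Its C/EBPα value in DMSO lies under the lowest C/EBPα score, 8.10, so it too may have been listed through its rosiglitazone tags. In the PPARγ window C/EBPα was 8.83 and 12.7 units, a ratio of 1.44 (0.416 to 6.30), an interval that overlaps that of the C/EBPα window.

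PPARγ was lower with rosiglitazone at the next highest peak of the window. At chr5:17382576-17382762 it went from 94.1 units to 49.0 (107 and 59 tags), a ratio of 0.521 (0.373 to 0.723). Its DMSO value ranked 169th in the list. A C/EBPα peak lies 5 bp from its centre at chr5:17382559-17382789, where C/EBPα was 28.7 and 38.2 units, a ratio of 1.33 (0.674 to 2.78). MED1 held 1 tag and 4, and CBP was 42.0 and 54.6 units (19 and 9 tags), a ratio of 1.30 (0.518 to 3.01), so the intervals of both coactivators held 1 where that of PPARγ lay below it.

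The remaining Cd36 peaks were low. PPARγ at chr5:17425014-17425200 was 23.7 and 15.0 units, a ratio of 0.630 (0.327 to 1.19), and at chr5:17430121-17430307 it was 18.5 and 15.8 units, a ratio of 0.855 (0.435 to 1.67). The highest ratio was at chr5:17450296-17450482, 4.40 and 15.0 units (5 and 18 tags), 3.40 (1.22 to 11.7), an unshared peak with no MED1 or CBP tag in any library. Its DMSO value lies under the lowest PPARγ score, 5.60, so it may have been listed through its rosiglitazone tags. At chr5:17270985-17271171 the ratio was lowest, 0.501 (0.197 to 1.19), from 14.9 units to 7.48. The other 3 peaks had PPARγ ratios between 1.36 and 1.55, with intervals that held 1. Of these, the peak chr5:17368999-17369185 had the lowest CBP ratio of members with at least 20 CBP tags, from 37.6 units to 24.3 (17 and 4 tags), 0.646 (0.158 to 1.98).

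Around Lpl, PPARγ ratios differed between peaks a short distance apart. The highest by score, chr8:71404167-71404353, held 53.6 units in DMSO and 42.4 with the ligand, for a ratio of 0.790 (0.534 to 1.17), with no C/EBPα partner. The next, chr8:71372853-71373039, held 62.4 and 27.4 units (71 and 33 tags), a ratio of 0.439 (0.282 to 0.673), the lowest of the window. Only 968 bp away, chr8:71373821-71374007 held 7.91 and 13.3 units, a ratio of 1.68 (0.699 to 4.32), an interval that held 1. That ratio was 3.78 times the one at chr8:71372853-71373039 (1.40 to 10.8). The Lpl ratio also turns on this peak, since without chr8:71372853-71373039 the window's summed ratio was 1.24 (1.06 to 1.46).

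PPARγ was higher at chr8:71384794-71384980, from 16.7 units to 44.9 (19 and 54 tags), a ratio of 2.69 (1.57 to 4.80), the highest of the window. The other peak with an interval above 1 was chr8:71410702-71410888, 10.6 and 23.3 units, with a ratio of 2.21 (1.09 to 4.76). Both overlap C/EBPα peaks. At chr8:71408303-71408489 PPARγ was 43.1 and 37.4 units, a ratio of 0.868 (0.566 to 1.33), and at chr8:71390377-71390563 it was 32.5 and 38.2 units, a ratio of 1.18 (0.746 to 1.86). These also overlap C/EBPα peaks, so both higher and other peaks of this window were shared. The other 5 PPARγ peaks had ratios between 0.945 and 1.61, with intervals that held 1. Of the 8 pairs of neighbours within 2 kb in all windows, the interval of the difference excluded 1 for 5, though for the pair chr3:10202075-10202261 and chr3:10203841-10204027 its lower end was 1.00 (to 25.7). The same share over neighbouring PPARγ peaks of the whole list was not measured, so this count has no background beside it.

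Summed C/EBPα had an interval above 1 around Lpl and intervals that held 1 in the other windows. Over the C/EBPα peaks the summed values were 373 and 372 units around Fabp4 and Fabp5, a ratio of 0.997 (0.822 to 1.21), and 227 and 265 around Cd36, a ratio of 1.16 (0.915 to 1.49). Around Lpl they were 305 and 396 units, a ratio of 1.30 (1.06 to 1.60), which was 1.28 times that of all other C/EBPα peaks (1.05 to 1.58). Without chr8:71386315-71386545 the Lpl ratio was 1.22 (0.991 to 1.52). None of the 3 comparisons between windows had an interval that excluded 1. The interval lay above 1 at 4 of the 37 C/EBPα members (10.8%), where the background was 7.95%, and below 1 at 0, where the background was 6.23%. At least 2-fold higher were 6 members, where the background was 15.9%, and at least 2-fold lower were 0, where it was 9.25%. Over the 37 peaks the ratios ran from 0.513 to 7.50.

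The 2 highest-scoring C/EBPα peaks of each window had intervals that held 1. Around Lpl, chr8:71372716-71372946 held 77.3 units in DMSO and 77.7 with the ligand, for a ratio of 1.01 (0.653 to 1.57). It overlaps the PPARγ peak whose PPARγ was lower, with centres 115 bp apart. Counted in this C/EBPα window, PPARγ was 38.7 and 28.3 units, a ratio of 0.731 (0.453 to 1.17). At chr8:71390420-71390650 C/EBPα was 48.6 and 52.2 units, a ratio of 1.07 (0.626 to 1.89). Around Cd36, chr5:17330537-17330767 held 42.0 and 34.4 units, a ratio of 0.820 (0.439 to 1.56), and chr5:17354564-17354794 held 22.1 and 44.6, a ratio of 2.02 (0.978 to 4.57). Both lack a PPARγ partner. Around Fabp4 and Fabp5, chr3:10246706-10246936 held 55.2 and 36.9 units, a ratio of 0.669 (0.378 to 1.19). The 2 Lpl peaks with an interval above 1 were chr8:71373823-71374053, 19.9 and 43.3 units with a ratio of 2.18 (1.02 to 5.17), and chr8:71386315-71386545, 15.5 and 42.0 units with a ratio of 2.72 (1.18 to 7.28).

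**Figure D4:**
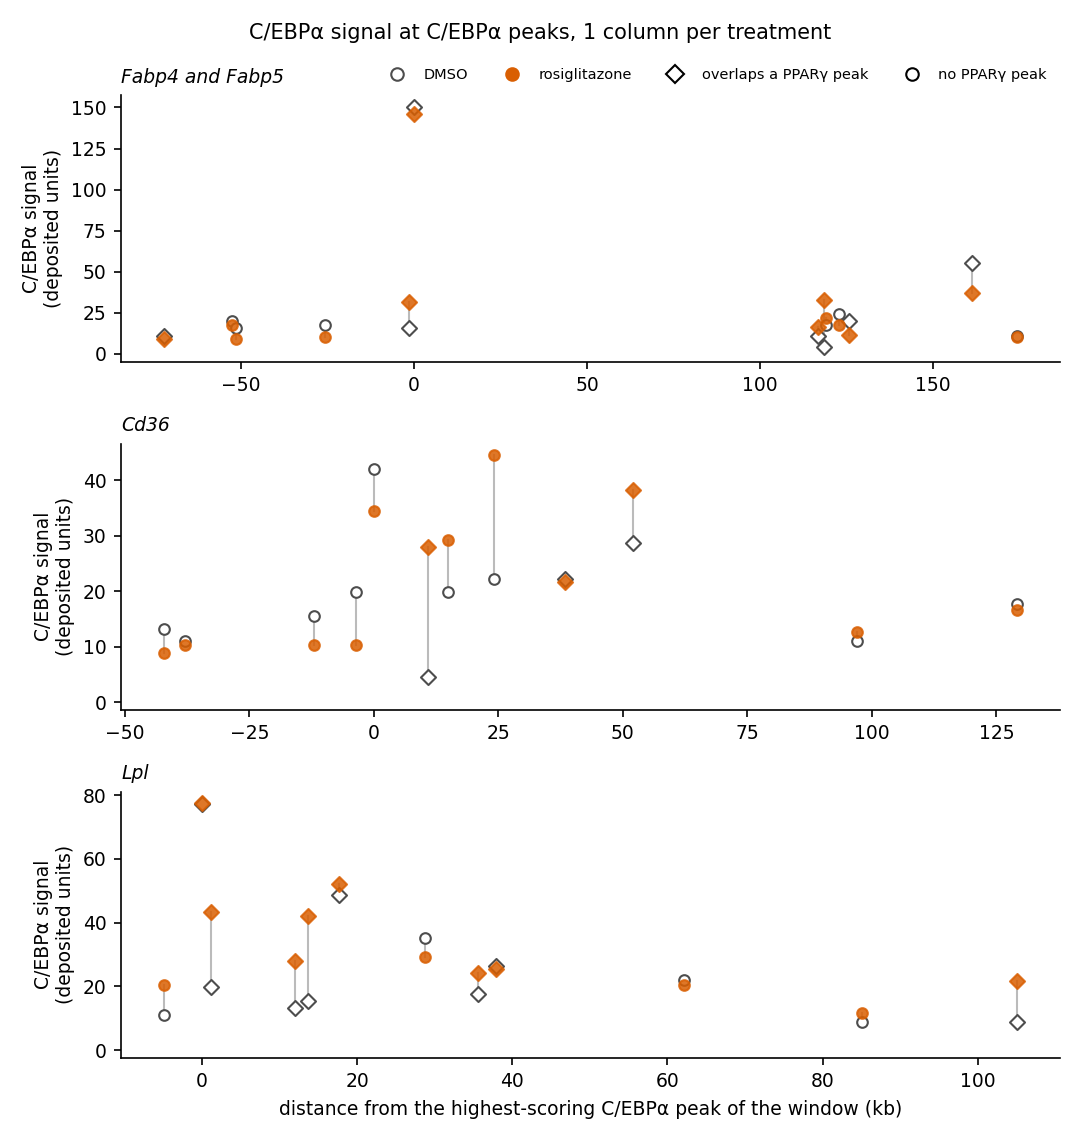
C/EBPα signal in deposited units at each C/EBPα peak in DMSO (open) and rosiglitazone (filled), against the distance in kb from the highest-scoring C/EBPα peak of the window, with diamonds for peaks that overlap a PPARγ peak. The highest peak around Fabp4 and Fabp5 holds 150 and 146 units and the highest around Lpl 77.3 and 77.7.

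At PPARγ peaks the MED1 ratio was lower around Lpl than in the other windows. At the PPARγ peaks around Fabp4 and Fabp5 it summed to 458 units in DMSO and 1102 with the ligand (131 and 144 tags), for a ratio of 2.41 (1.89 to 3.07), 1.48 times that of all other peaks (1.16 to 1.89). Around Cd36 it summed to 122 and 207 units (35 and 27 tags), a ratio of 1.69 (0.983 to 2.87), and 1.04 times that of all other peaks (0.605 to 1.77). Around Lpl it summed to 336 and 245 units (96 and 32 tags), a ratio of 0.730 (0.473 to 1.10), 0.449 times that of all other peaks (0.291 to 0.676). The ratio around Fabp4 and Fabp5 was 3.29 times that around Lpl (2.03 to 5.43), and Cd36 was 2.30 times Lpl (1.15 to 4.61), while Fabp4 and Fabp5 against Cd36 gave 1.42 (0.789 to 2.59). Counted at C/EBPα peaks, MED1 around Cd36 was 3.13 (1.73 to 5.75) on 21 and 30 tags, 2.19 times that of all other C/EBPα peaks (1.21 to 4.02). Around Fabp4 and Fabp5 it was 2.98 there (2.26 to 3.95). The first window leans on chr3:10211394-10211580, without which its MED1 ratio was 1.78 (1.30 to 2.42), and the Lpl window was 0.905 (0.575 to 1.39) without chr8:71404167-71404353 and 0.535 (0.320 to 0.861) without chr8:71372853-71373039. For Cd36 it was 2.19 (1.19 to 4.03) without chr5:17368999-17369185.

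Within the Lpl window the low MED1 sums lay in the later groups of peaks. The group from chr8:71401491 to 71410888 held 29 MED1 tags at its PPARγ peaks in DMSO and 2 with the ligand, for a ratio of 0.151 (0.0175 to 0.597). The group from chr8:71476660 to 71479017 held 19 and 1, a ratio of 0.115 (0.00277 to 0.725). The groups before them, from chr8:71367779 to 71374053 and from chr8:71384741 to 71390650, held 14 and 10 tags and 30 and 19 tags, with ratios of 1.56 (0.622 to 3.79) and 1.39 (0.738 to 2.55). Their single PPARγ peaks were mixed. In order along the chromosome, MED1 tags were 6 and 10, then 8 and 0 in the former group. In the latter they were 19 and 13, 0 and 4, then 11 and 2. In the groups with low MED1 the PPARγ ratios were 0.961 (0.742 to 1.24) and 1.44 (1.01 to 2.08). A single MED1 tag is worth 7.65 units in the rosiglitazone library, the shallowest of all. The lowest MED1 ratio of a member with at least 20 tags was at the highest-scoring Lpl peak, chr8:71404167-71404353, from 73.4 units to 7.65 (21 and 1 tags), 0.104 (0.00252 to 0.648).

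The CBP ratio around Lpl had an interval above 1 at the PPARγ peaks and one that held 1 at the C/EBPα peaks. At the PPARγ peaks it summed to 393 units in DMSO and 588 with the ligand (178 and 97 tags), for a ratio of 1.50 (1.16 to 1.93). At the C/EBPα peaks of the window it held 214 and 79 tags, a ratio of 1.01 (0.772 to 1.32). At chr8:71404167-71404353 it was 57.5 and 109 units (26 and 18 tags), a ratio of 1.90 (0.981 to 3.60). The peak chr8:71477890-71478076 held 106 and 133 units of CBP, ranking 159th in DMSO and 243rd in rosiglitazone among PPARγ peaks, while its MED1 was 48.9 and 7.65 units (14 and 1 tags). Around Fabp4 and Fabp5 the CBP ratio was 1.31 (0.937 to 1.82), or 1.48 (1.05 to 2.06) without chr3:10077713-10077899, and around Cd36 it was 1.22 (0.769 to 1.88). At PPARγ peaks, the CBP intervals of all 3 windows against all other peaks held 1, at 0.952 (0.680 to 1.32), 0.881 (0.558 to 1.36) and 1.08 (0.837 to 1.40), and so did those of the 3 comparisons between windows. At C/EBPα peaks the CBP ratio was 1.95 (1.14 to 3.28) around Fabp4 and Fabp5 and 0.752 (0.434 to 1.25) around Cd36. Against all other C/EBPα peaks the 3 windows were at 1.55 (0.913 to 2.61), 0.599 (0.346 to 0.994) and 0.807 (0.616 to 1.05), so only the Cd36 interval excluded 1.

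**Figure D5:**
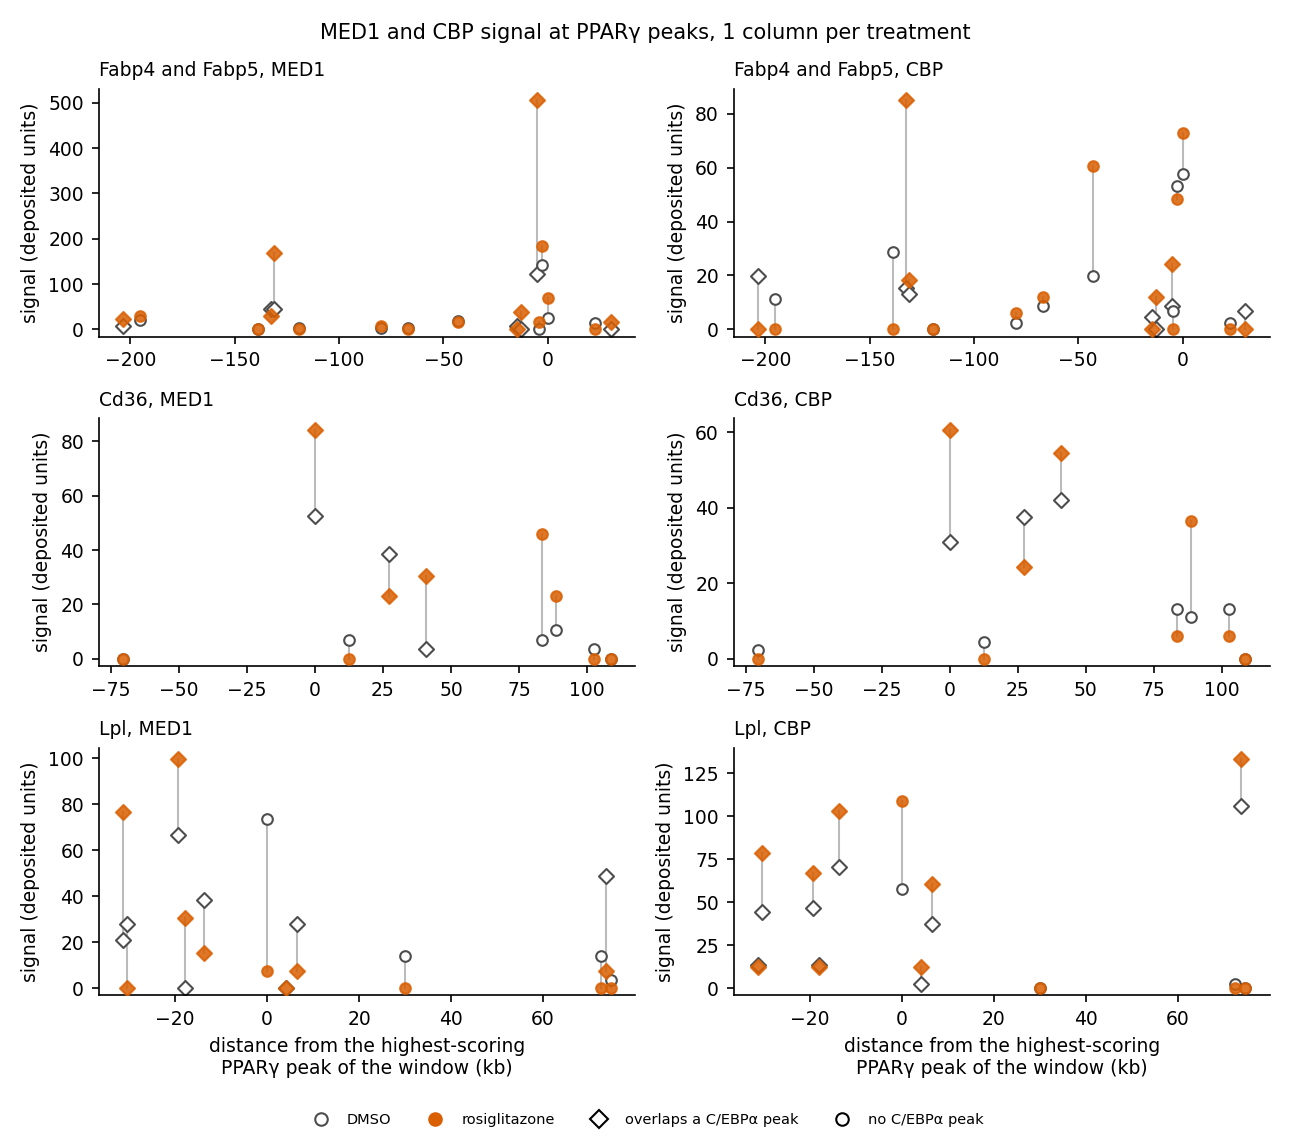
MED1 (left) and CBP (right) signal in deposited units at each PPARγ peak in DMSO (open) and rosiglitazone (filled), against the distance in kb from the highest-scoring PPARγ peak of the window, with diamonds for peaks that overlap a C/EBPα peak. MED1 reaches 505 units with rosiglitazone at 1 peak around Fabp4 and Fabp5, and at the highest-scoring Lpl peak it is 73.4 in DMSO and 7.65 in rosiglitazone while CBP is 57.5 and 109.

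Coactivator tags at single members were few. The MED1 interval lay above 1 at 6 of 38 PPARγ peaks (15.8%), where the background was 10.2%, and below 1 at 1 (2.63%), where it was 1.64%. For CBP these were 2 (5.26%), where the background was 6.40%, and 1 (2.63%), where it was 0.503%. At least 2-fold higher and lower in MED1 were 12 and 14 members, where the background was 29.8% and 22.5%, and in CBP 7 and 12, where it was 23.6% and 25.1%. Most of these rest on fewer than 20 tags, since 6 members reached 20 MED1 tags and 12 reached 20 CBP tags. Of these, 2 were at least 2-fold higher and 1 lower in MED1, where the background among such peaks was 45.1% and 8.14%, and 1 was higher and 0 lower in CBP, where it was 22.7% and 5.70%.

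MED1 was set against the members' PPARγ call. The 7 peaks whose PPARγ interval lay above 1 held 77 MED1 tags in DMSO and 110 with the ligand, for a ratio of 3.13 (2.32 to 4.24), where the same class of the whole list had 1.95. By window the ratio was 4.20 (2.96 to 6.04) around Fabp4 and Fabp5 and 1.14 (0.550 to 2.24) around Lpl, with no MED1 tag around Cd36. The peak chr3:10211394-10211580 alone held 35 and 66 of these tags. The 28 peaks whose PPARγ interval held 1 had a MED1 ratio of 0.977 (0.740 to 1.28), where the list had 1.37. This pools 1.31 (0.899 to 1.90) around Fabp4 and Fabp5, 1.48 (0.833 to 2.59) around Cd36 and 0.278 (0.115 to 0.582) around Lpl. The 3 peaks with PPARγ below 1 held only 8 and 14 MED1 tags, a ratio of 3.83 (1.50 to 10.5), where the list had 0.756. Pooled over windows, MED1 was thus above 1 in both outer classes of the members, while in the list its order followed that of PPARγ. Among members, the difference between classes cannot be told apart from that between windows. CBP was 1.44 (0.896 to 2.29), 1.39 (1.12 to 1.70) and 1.23 (0.587 to 2.44) in the same order, and C/EBPα 1.22 (0.925 to 1.63), 1.23 (0.984 to 1.56) and 1.24 (0.810 to 1.94).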

How the data were processed

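Peak positions and tag values came from the authors' PPARγ and C/EBPα peak lists. The authors named FastQC, Bowtie, HOMER, edgeR and build mm9 in the submitters' processing notes. Tool versions, settings and any pooling are not stated in what was used here. The deposited signal values (8 columns, 4 antibodies by 2 treatments) are scaled tags per peak of 186 or 230 bp. All values above 0 were whole multiples of a step within 0.02 steps, so tags were recovered. The deposited peak score was used to rank peaks within a list, and a further deposited column, a fraction per peak, entered no result. For MED1 with rosiglitazone the header reads BRL, a code of that drug. PPARγ columns name no replicate, and each may stand for 1 labelled sample or both.

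Ratios, exact intervals and conditional odds ratios were computed with scipy 1.17.1 and checked on simulated tags; the per-peak log2 ratio used a pseudocount of 1. Minimum tags (20) refer to both treatments together. Peak groups have gaps of at most 10 kb. Windows of overlapping peaks share tags, so values at both are not independent. Peaks printed in full were, per window, the 4 highest PPARγ and 3 highest C/EBPα scores and the extreme PPARγ ratios, and over all windows the extreme MED1 and CBP ratios, each among peaks with at least 20 tags; others, such as chr3:10208330-10208560, were chosen after their values were seen. Windows, lists and rules were chosen with earlier results of these data known. No mm9 sequence or annotation was used, so motifs and other pathway genes were not analysed here. RNA polymerase II and input were not analysed here.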

Additional observations from a re-analysis of the deposited data

How the results depend on the processing

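No paired analysis was possible because the value columns name no replicate, and leaving out a replicate was not possible for the same reason. Under the alternatives, 107 window values and counts stayed within counting error or 1.5 times and 37 moved. No ratio whose interval excluded 1 changed side of 1. Among those that moved, PPARγ around Lpl and MED1 and CBP around Cd36, whose intervals held 1, did. Scaled so that all peaks of a list had a ratio of 1, PPARγ was 1.09 (Fabp4 and Fabp5), 0.555 (Cd36) and 0.705 (Lpl), MED1 1.48 (Fabp4 and Fabp5) and 0.449 (Lpl), and CBP 1.08 (Lpl), and 7 PPARγ peaks in place of 2 were at least 2-fold lower. Centred on the median of peaks with at least 20 tags, PPARγ was 1.17, 0.598 and 0.759, MED1 1.28, 0.901 and 0.389, and CBP 1.10 (Lpl). Counted at C/EBPα peaks, PPARγ was 2.37 (Fabp4 and Fabp5), MED1 3.13 (Cd36), and CBP 1.95, 0.752 and 1.01 in the 3 windows. As a median over peaks, PPARγ was 1.33 (Fabp4 and Fabp5) and 1.26 (Lpl), MED1 1.44 and 0.258, and CBP 0.655 (Cd36). With 1 peak left out, an alternative chosen after seeing the data, the lowest values around Fabp4 and Fabp5 were 1.44 for PPARγ and 1.78 for MED1. Without the 2 richest shared peaks, also chosen after seeing the data, PPARγ at shared peaks there was 1.68 in place of 3.03. Among peaks with at least 20 tags, 2 were 2-fold higher and 1 lower in MED1, and 1 and 0 in CBP; by the interval these were 6 and 1, and 2 and 1. Windows narrowed by 20 kb at each end left 7 PPARγ peaks around Lpl, and a score at or above the list median left 7 C/EBPα peaks around Fabp4 and Fabp5 and 7 around Cd36. The cause was not tested. MED1 and CBP with rosiglitazone, at 7.65 and 6.06 units per tag, limit single peaks most. Other pathway genes and motifs were not analysed here.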

Other observations

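Some C/EBPα peaks without a PPARγ partner were bare of coactivator. Of the 19 members without a PPARγ partner, 6 (31.6%) held no MED1 or CBP tag in any of the libraries, where the list had 14.2% of 19486 peaks. The difference between these shares was not tested and rests on few peaks. Of the 18 shared C/EBPα members 0 were bare, where the list had 2.62%. The strongest of the 6 was chr5:17330537-17330767 in the Cd36 window, with 42.0 units of C/EBPα in DMSO and 34.4 in rosiglitazone and 11.4 and 8.31 units of PPARγ. Of the 38 PPARγ members 1 was bare, where the list had 11.3%. With libraries this shallow, 0 tags does not show that a coactivator was absent.

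The site richest in CBP among the members lay near the end of the Lpl window. The C/EBPα peak chr8:71477800-71478030 held 170 units of CBP in DMSO, 34th of 30519, and 133 in rosiglitazone (77 and 22 tags), a ratio of 0.784 (0.465 to 1.27). The overlapping PPARγ peak, with its centre 68 bp away, gave 1.26 (0.723 to 2.12).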
